A study of Homo sapiens with 4 samples.

Results

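The genes described here are 41 genes of the TGF-beta and BMP pathway, chosen by gene symbol among the non-control spots of 4 one-colour human Agilent arrays. All 41 are among the 27193 gene names on the array, and 40 of them entered the test over 22022 genes, for which a gene needed a probe that the scanner software flagged as well above background on each array of 1 group or the other. GREM1, a secreted BMP antagonist, was not tested because neither of its 2 probes was well above background on any array. The arrays hold RNA from MCF10A.B2 cells, the non-tumorigenic human breast epithelial line MCF10A carrying a Her2 that a chemical crosslinker can activate. The 2 control arrays are of cells labelled Pak1 wild type, and the 2 PAK1 shRNA arrays are of cells with a tetracycline inducible shRNA against PAK1, the p21-activated kinase 1. Cells of both groups carried the same Her2 construct, were starved of serum for 3 h and were then given the crosslinker AP1510 for 15 min. The labels do not say whether the control cells carried a vector or received an inducer, so effects of the shRNA system and of PAK1 loss cannot be told apart. They give the diagnosis as breast cancer, and the design text speaks of cells from 2 tumors per group, while the sample titles name the cell line. Nothing else says whether the 2 samples of a group were separate cultures, so p-values measure only the spread between these samples, which may be technical.

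Ligands of this superfamily (the TGF-betas, the activins and inhibins built from INHBA, INHBB and INHA chains, and the BMPs) bind pairs of type I and type II receptor kinases. TGF-beta and activin receptors phosphorylate SMAD2 and SMAD3, and BMP receptors phosphorylate SMAD1, SMAD5 and SMAD9. These join SMAD4 and enter the nucleus. SMAD6 and SMAD7 inhibit the pathway and are themselves induced by it, and the ID genes are well-known targets of BMP signals. In breast epithelium TGF-beta is known for slowing growth and for promoting changes of cell shape and matrix.

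A level below is a normalized log2 intensity of 1 probe, and a log2 fold change is the mean of the PAK1 shRNA arrays minus that of the control arrays, so that 1 unit is a 2-fold difference. Adjusted p is limma's with Benjamini-Hochberg adjustment over all 22022 genes, and a gene was called higher or lower where it was under 0.05. PAK1 itself read 11.19 and 11.27 in control and 10.44 and 10.52 in shRNA cells, a log2 fold change of -0.75 ± 0.08 (SE, n = 2 per group, adjusted p = 0.00018) that left 59.5% of the control level. Arrays of 1 group correlated at r = 0.998 over 27545 probes and arrays of different groups at 0.932 to 0.942. All 10 basal mammary epithelial markers were well above background on every array. So were 5 of 8 luminal markers, while PGR and ELF5 were on none. Of 8 fibroblast markers 3 were, and COL1A2, COL3A1 and PDGFRA were on none. The summed intensity of the 8 was 4254 to 5000 in control and 8085 to 8289 in shRNA cells. DCN was the brightest of them, at mean levels of 11.86 and 12.73. COL1A1 (log2 fold change 0.87), DCN (0.88) and LUM (1.79) were called higher and PDGFRB (-0.58) lower. The 7 leukocyte markers measured, CD14 and CD68 among them, were all above background too, and summed to 19566 to 20494 and 51317 to 57102. The part of these markers in the results below was not tested.

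Of the 40 genes tested, 16 were higher and 13 lower in PAK1 shRNA cells, and 11 did not pass. Over all genes 62.8% were called, 31% higher and 31.8% lower, so a call alone set these genes little apart. The same shares stand beside each count by role or list below. Groups did not overlap for 35 of the 40 genes, beside 81.7% of all genes. At least 2-fold, 8 were higher, beside 8.85% of all genes, and 4 lower, beside 8.95%. The 8 were the ligands INHBA, BMP2 and TGFB2, the receptors ACVR1 and TGFBR2, the activin binding protein FST, the protease BMP1 and the target ID4. Lower by that much were the receptor ACVR2B, the latent TGF-beta binding protein LTBP2, SMAD9 and SMAD6. The median log2 fold change of the 40 genes was 0.02, the same as that of all genes, in a range from -1.88 to 5.68.

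**Figure D1:**
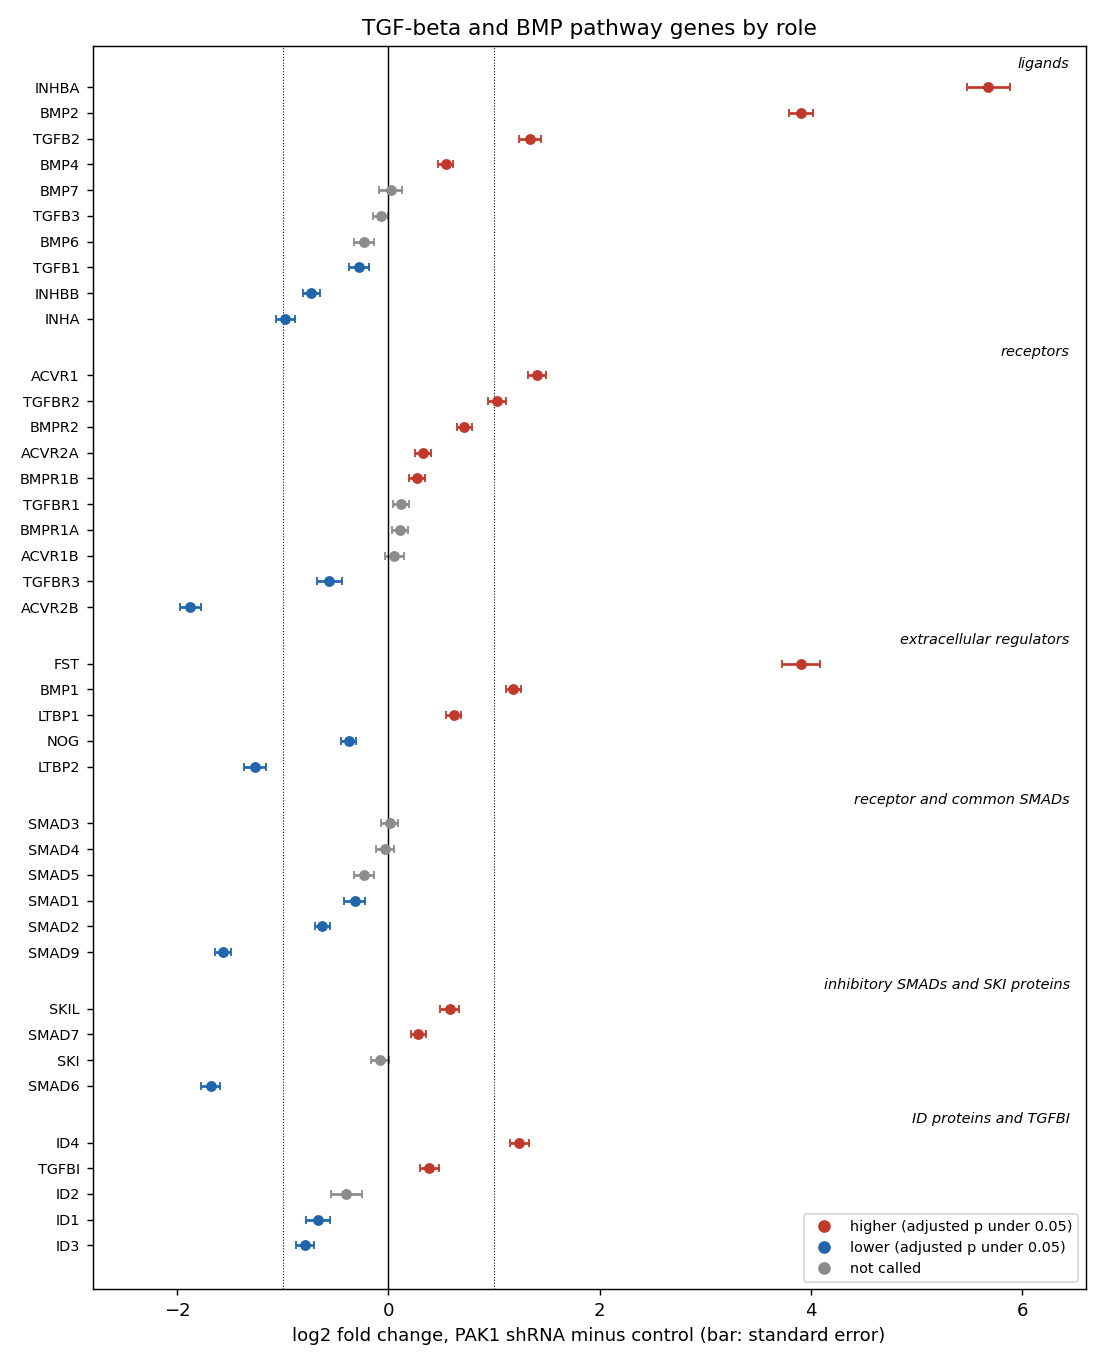
Log2 fold change of each of the 40 tested genes (x axis, PAK1 shRNA minus control, bars 1 standard error from limma, 2 arrays per group), grouped by role, with dotted lines at 2-fold. INHBA, BMP2 and FST lie at 3.91 or above, and none of the 6 receptor and common SMADs was called higher, beside 31% of all genes.

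Upstream sequence is shown for 5 genes that stand at the ends of the pathway: the ligand INHBA and its binding protein FST, the inhibitor SMAD6, and the targets ID1 and ID3, which were lower together. Each run is the 250 bases before the annotated start in RefSeq (GRCh38.p14), 5′ to 3′ on the gene's strand. INHBA lies at chr7:41703091-41703340 (minus strand), FST at chr5:53480379-53480628 (plus), SMAD6 at chr15:66701986-66702235 (plus), ID1 at chr20:31605039-31605288 (plus) and ID3 at chr1:23559502-23559751 (minus). Capitals mark matches to the motifs named after the sequences.
INHBA: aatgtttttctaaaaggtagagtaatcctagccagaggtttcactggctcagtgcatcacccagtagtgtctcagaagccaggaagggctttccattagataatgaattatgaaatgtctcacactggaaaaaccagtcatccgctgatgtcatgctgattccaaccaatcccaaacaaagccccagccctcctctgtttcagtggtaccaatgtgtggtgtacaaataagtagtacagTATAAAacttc
FST: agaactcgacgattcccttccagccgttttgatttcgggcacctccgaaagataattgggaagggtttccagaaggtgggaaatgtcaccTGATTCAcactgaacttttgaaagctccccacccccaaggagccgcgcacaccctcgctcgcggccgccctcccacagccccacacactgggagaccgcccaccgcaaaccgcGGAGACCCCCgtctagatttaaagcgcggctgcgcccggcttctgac
SMAD6: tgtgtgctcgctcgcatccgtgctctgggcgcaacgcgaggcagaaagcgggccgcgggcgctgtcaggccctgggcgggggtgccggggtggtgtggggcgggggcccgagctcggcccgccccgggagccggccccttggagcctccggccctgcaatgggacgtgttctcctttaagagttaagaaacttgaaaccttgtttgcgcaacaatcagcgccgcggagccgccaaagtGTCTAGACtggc
ID1: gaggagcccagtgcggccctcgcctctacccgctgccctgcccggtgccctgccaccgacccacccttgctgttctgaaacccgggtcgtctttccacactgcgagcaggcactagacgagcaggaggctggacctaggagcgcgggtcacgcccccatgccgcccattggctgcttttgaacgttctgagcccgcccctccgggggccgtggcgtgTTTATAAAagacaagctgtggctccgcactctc
ID3: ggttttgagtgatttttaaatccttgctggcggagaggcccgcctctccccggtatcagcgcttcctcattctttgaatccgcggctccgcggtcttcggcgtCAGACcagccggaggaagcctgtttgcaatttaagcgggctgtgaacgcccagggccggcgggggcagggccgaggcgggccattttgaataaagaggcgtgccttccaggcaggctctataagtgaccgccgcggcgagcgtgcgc
The letters searched, on both strands, were GGCGCC (a SMAD element rich in GC), the short SMAD element CAGAC, the SMAD palindrome GTCTAGAC, the cAMP response element TGACGTCA, the AP-1 site TGANTCA, the core TATAAA of a TATA box, and the NF-kB consensus. INHBA has TATAAA at -11 to -6 from the start. FST has an AP-1 match at -160 to -154 and an NF-kB match at -47 to -38. SMAD6 has the SMAD palindrome at -12 to -5, which 0.182% of all 35116 RefSeq windows of this length hold. ID1 has TATAAA at -31 to -26, overlapped by a match on the other strand, and ID3 has the short SMAD element at -147 to -143. In GC content the INHBA window stood lowest at 42.8%, with FST at 60%, ID3 at 62%, ID1 at 66% and SMAD6 at 68%, against a median of 58% over all windows. Of the 41 genes 36 had windows, 66 in all, because some genes have several starts. The SMAD element rich in GC was in 24.2% of these and 16.4% of all windows, and the short element in 39.4% and 38%. The palindrome was in 1 of the 66 (1.52%), the SMAD6 window shown. The cAMP element was in 3.03% and 1.65%, AP-1 in 7.58% and 6.57%, and TATAAA in 12.1% and 10.7%. NF-kB was in 13.6% (9 windows of 7 genes) and 5.21%, so windows of 1 gene were counted separately. These are matches of letters, not binding sites.

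INHBA, BMP2 and TGFB2 were the ligands with the largest rises, while both partner chains of INHBA in inhibins and activins, INHA and INHBB, were lower. In all 4 of the 10 ligands were higher, 3 lower and 3 not called. INHBA encodes the chain of activin A and read 6.74 and 6.89 in control cells and 12.16 and 12.83 in shRNA cells (chr7:41729246-41729305, minus strand, hg19). The groups lay far apart, and the log2 fold change was 5.68 ± 0.20 (SE, n = 2 per group, adjusted p = 2.4e-06), or 51.3-fold. Raw spot intensity went from 108.9 and 97.2 to 3827 and 6159. The INHBA probe is printed 10 times per array, and its spots varied within an array by an SD of 0.10 to 0.15 on the log2 scale. BMP2, a BMP that signals through the SMAD1 branch, read 7.20 and 7.30 in control and 11.00 and 11.32 in shRNA cells (chr20:6760810-6760869, plus strand, hg19), with no overlap. Its log2 fold change was 3.91 ± 0.12 (SE, adjusted p = 1.3e-06). Over other settings INHBA ran from 4.35 to 7.05 and BMP2 from 2.87 to 4.76.

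TGFB2 and BMP4 rose from low levels. TGFB2, 1 of the TGF-beta isoforms, read 7.05 and 7.15 against 8.31 and 8.58, a log2 fold change of 1.34 ± 0.11 (adjusted p = 5.8e-05). BMP4 read 6.84 and 6.87 against 7.36 and 7.43, or 0.54 ± 0.07 (adjusted p = 0.00071). Groups did not overlap for either gene. With other scalings or background settings the TGFB2 difference ran from 0.80 to 2.05 and the BMP4 difference from 0.29 to 1.28, all above 0 and past the threshold.

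INHA, the inhibin alpha chain, read 8.17 and 8.01 in control and 7.16 and 7.07 in shRNA cells, a log2 fold change of -0.98 ± 0.09 (SE, adjusted p = 0.00011). INHBB, the activin B chain, read 6.99 and 6.95 in control cells and was not well above background on either shRNA array. It was 1.66-fold lower as measured (adjusted p = 0.00025), and its log2 difference ran from -2.50 to -0.37 over all settings. TGFB1, the most studied TGF-beta, read 11.29 and 11.14 against 10.86 and 11.02. That difference of -0.28 ± 0.09 had an adjusted p of 0.037. The call was lost with 75th percentile scaling (-0.32), without control 1 (-0.21) and without shRNA 1 (-0.20). TGFB3 read 7.94 and 7.95 against 7.87 and 7.88, with no overlap but an adjusted p of 0.43. BMP6 read 6.87 and 7.03 against 6.64 and 6.79 (adjusted p = 0.067), and BMP7 read 7.16 and 7.01 against 7.23 and 6.98, with overlapping groups.

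**Figure D2:**
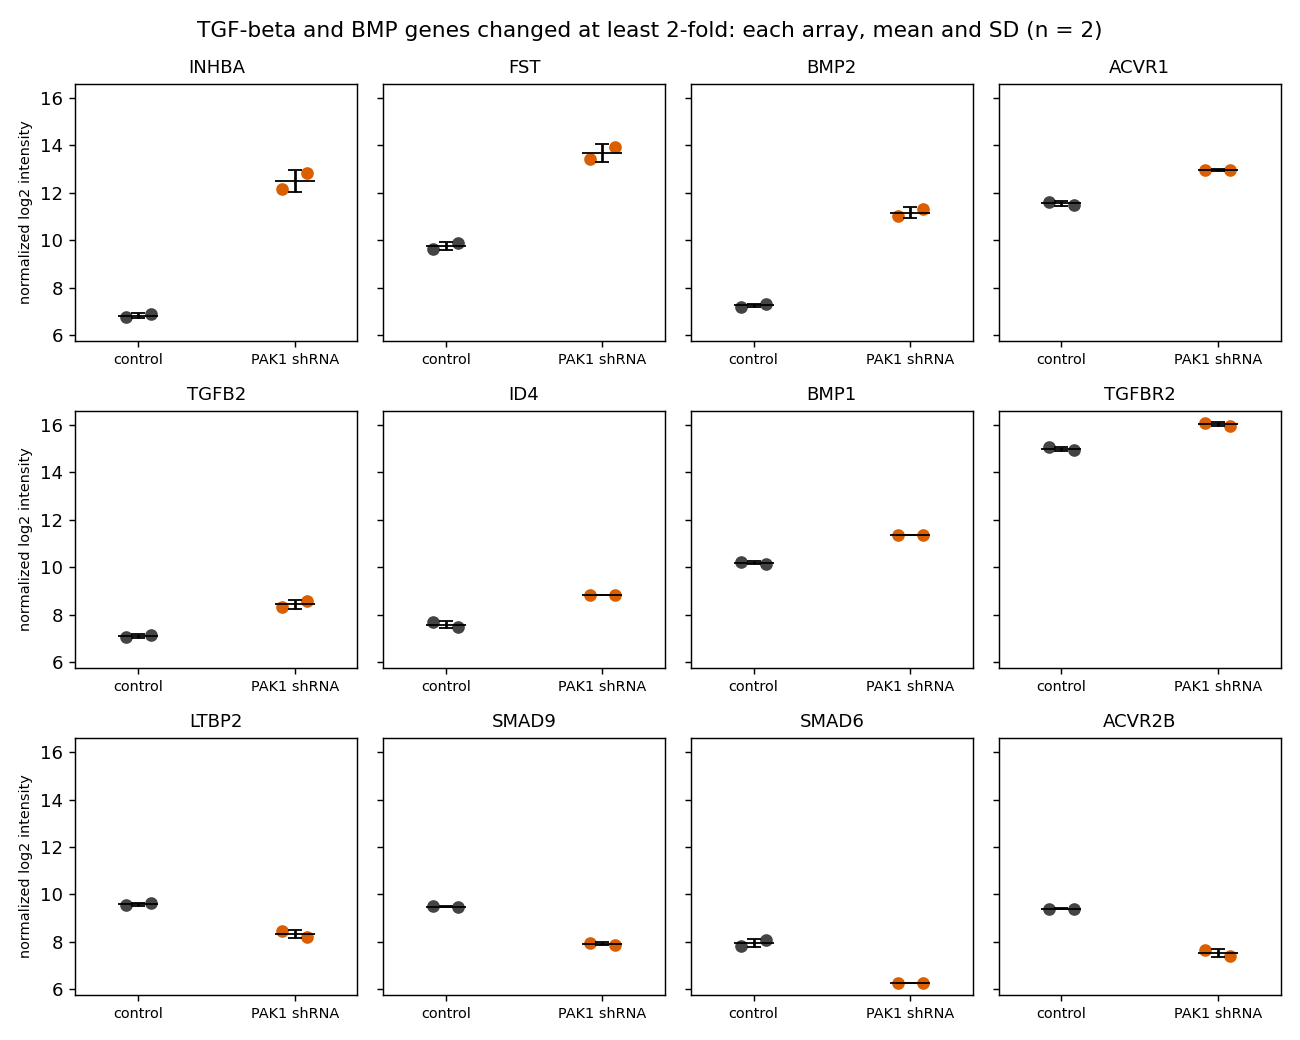
Normalized log2 intensity (y axis, the same in every panel) on each of the 2 control and 2 PAK1 shRNA arrays for the 12 genes changed at least 2-fold; points are arrays, the bar is the mean and the whiskers are the SD. In each panel the 2 groups are apart, and the shRNA arrays of INHBA and FST differ more from each other (SD 0.47 and 0.38) than their control arrays (0.10 and 0.18).

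Among the 10 receptors, 5 were higher, 2 lower and 3 not called, with a median log2 fold change of 0.19. ACVR1, a type I receptor for BMPs and activins, read 11.63 and 11.47 in control and 12.94 and 12.97 in shRNA cells, a difference of 1.41 ± 0.08 (SE, adjusted p = 1.7e-05). A separate ACVR1 probe gave 1.50. TGFBR2, the type II receptor that binds TGF-beta, read 15.06 and 14.94 against 16.08 and 15.98, a log2 fold change of 1.03 ± 0.08 (adjusted p = 6.7e-05). The 2 groups of both genes stood apart. BMPR2, the type II receptor for BMPs, read 9.52 and 9.55 against 10.26 on both shRNA arrays (0.72 ± 0.07, adjusted p = 0.00016). Smaller rises were those of ACVR2A, a type II activin receptor, at 0.33 (adjusted p = 0.0076), and of the type I BMP receptor BMPR1B at 0.27 (adjusted p = 0.020). The ACVR2A call was lost without shRNA 2 (0.29), and the BMPR1B call without control 1 (0.22), shRNA 1 (0.30) or shRNA 2 (0.25).

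ACVR2B, the other type II activin receptor, moved the other way. It read 9.41 and 9.39 in control and 7.64 and 7.40 in shRNA cells (chr3:38534307-38534366, plus strand, hg19), which left 27.3% of the control level. Its log2 fold change was -1.88 ± 0.10 (SE, adjusted p = 1.0e-05), from -2.33 to -1.24 over other settings. TGFBR3, a co-receptor also called betaglycan, read 9.87 and 9.60 against 9.28 and 9.06, or -0.56 ± 0.12 (adjusted p = 0.0057).

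The type I receptors TGFBR1, BMPR1A and ACVR1B did not pass. TGFBR1, the partner of TGFBR2, read 8.18 and 8.12 against 8.29 and 8.24 (log2 fold change 0.12, adjusted p = 0.20). BMPR1A read 11.86 and 11.91 against 11.98 and 12.01 on its brightest probe (0.11, adjusted p = 0.22). That probe stood apart from 2 others of the gene, which gave 0.61 and 0.48. ACVR1B, an activin receptor, read 8.10 and 8.07 against 8.23 and 8.05, and its groups overlapped.

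**Figure D3:**
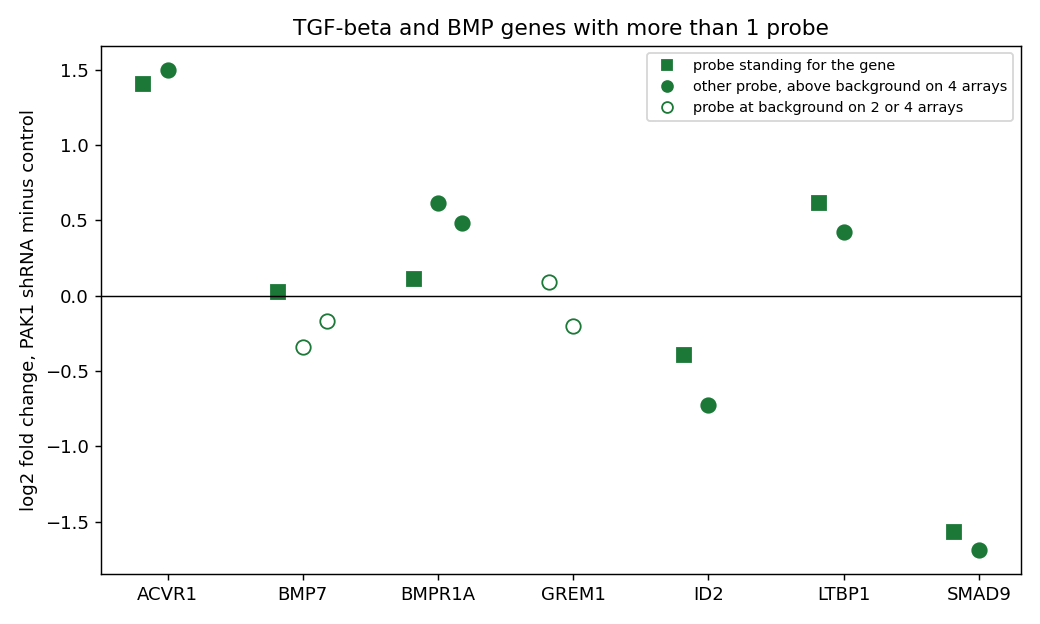
Log2 fold change (y axis, PAK1 shRNA minus control) of every probe of the 7 genes that have more than 1 probe; squares are the probes that stand for the gene, filled circles other probes above background on all 4 arrays, open circles probes at background on 2 or 4 arrays. Probes of ACVR1, SMAD9, ID2 and LTBP1 share a direction, while the 3 BMPR1A probes range from 0.11 to 0.61.

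Of the 5 extracellular regulators tested, 3 were higher and 2 lower. FST encodes follistatin, which binds and neutralizes activin, and it moved with INHBA: it read 9.63 and 9.89 in control and 13.40 and 13.93 in shRNA cells (chr5:52780837-52780896, plus strand, hg19). With no overlap between the groups, the log2 fold change was 3.91 ± 0.18 (SE, adjusted p = 6.2e-06), or 15-fold. The FST probe is also printed 10 times, with a spot SD of 0.13 to 0.15 within an array. BMP1, a protease that processes procollagens and frees BMPs from an inhibitor, read 10.23 and 10.15 against 11.38 and 11.37, a log2 fold change of 1.18 ± 0.07 (adjusted p = 2.1e-05).

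LTBP1 and LTBP2, of the family named latent TGF-beta binding proteins, went in opposite directions. LTBP1 read 11.33 and 11.27 in control and 11.93 and 11.91 in shRNA cells, a difference of 0.62 ± 0.07 (SE, adjusted p = 0.00036), and a separate probe gave 0.42. LTBP2 read 9.54 and 9.63 against 8.45 and 8.20, or -1.26 ± 0.10 (adjusted p = 6.7e-05). Neither gene's groups overlapped. NOG, the BMP antagonist noggin, read 7.19 and 7.22 against 6.81 and 6.85 (-0.38 ± 0.07, adjusted p = 0.0036), a call that median centring of the arrays removed (-0.16, adjusted p = 0.14).

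None of the 6 receptor and common SMADs was called higher and 3 were lower, with a median log2 fold change of -0.27. The share called was 50%, beside 62.8% of all genes, 31% higher and 31.8% lower. SMAD9, the least studied BMP SMAD, fell the most, from 9.51 and 9.47 in control to 7.97 and 7.87 in shRNA cells (chr13:37422813-37422872, minus strand, hg19). Its groups were far apart, at -1.57 ± 0.08 (SE, adjusted p = 7.9e-06), which left 33.8% of the control level, and a separate probe gave -1.69. SMAD2, which carries TGF-beta and activin signals, read 9.40 and 9.48 against 8.80 and 8.83, a log2 fold change of -0.62 ± 0.07 (adjusted p = 0.00038). SMAD1 read 10.86 and 11.12 against 10.67 and 10.68 (-0.32 ± 0.10, adjusted p = 0.030). That call was lost without control 2 (-0.19), shRNA 1 (-0.31) or shRNA 2 (-0.32).

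The other SMADs of the group did not pass. SMAD3, the partner of SMAD2, read 11.84 and 11.68 in control and 11.79 and 11.76 in shRNA cells, with the shRNA values inside the control range (log2 fold change 0.01 ± 0.08, adjusted p = 0.92). SMAD4, shared by both branches, read 9.44 and 9.60 against 9.44 and 9.54 (-0.03 ± 0.09, adjusted p = 0.77), and its groups overlapped as well. SMAD5, of the BMP branch, read 11.33 and 11.14 against 11.06 and 10.95 (-0.23, adjusted p = 0.076). It passed in some other settings, among them median centring (-0.35, adjusted p = 0.015) and a replicate block.

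The inhibitory SMADs differed in direction. SMAD6, which acts mostly on BMP receptors, read 7.85 and 8.06 in control and 6.26 and 6.28 in shRNA cells (chr15:67074263-67074322, plus strand, hg19). The groups did not overlap, and the log2 fold change was -1.68 ± 0.09 (SE, adjusted p = 1.3e-05), with raw intensities of 280.3 and 245.1 against 66.2 and 63.6. The shRNA values lie near background, and this difference ran from -3.06 with the 75th percentile scaling to -0.92 with normexp fitted on all spots. SMAD7, which acts on both branches, read 10.28 and 10.30 against 10.58 and 10.56, a log2 fold change of 0.28 ± 0.07 (adjusted p = 0.012). Its call was lost with median centring (0.18), without shRNA 1 (0.28) and without shRNA 2 (0.30).

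SKIL and SKI encode nuclear proteins that repress SMAD-driven transcription. SKIL read 7.91 and 8.07 in control and 8.51 and 8.63 in shRNA cells, or 0.58 ± 0.09 (SE, adjusted p = 0.0013). SKI read 9.001 and 9.151 against 8.990 and 9.003, with overlapping groups (-0.08, adjusted p = 0.44).

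Of the ID genes, whose proteins block basic helix-loop-helix factors, ID1 and ID3 fell and ID4 rose. ID1 read 13.93 and 14.07 in control and 13.18 and 13.48 in shRNA cells, a log2 fold change of -0.67 ± 0.11 (SE, adjusted p = 0.0022). ID3 read 12.37 and 12.35 against 11.66 and 11.48, or -0.79 ± 0.09 (adjusted p = 0.00026). Both genes were below the control range on each shRNA array. ID4 read 7.69 and 7.48 against 8.83 and 8.82, a difference of 1.24 ± 0.09 (adjusted p = 4.3e-05). ID2 read 9.502 and 9.518 against 8.88 and 9.34, and missed the threshold (-0.40 ± 0.15, adjusted p = 0.052), while a second probe gave -0.72. It passed with no background correction (adjusted p = 0.044), median centring (0.023), cyclic loess (0.043), the deposited log2 values (0.038), probes above background on all 4 arrays (0.047) and the mean over probes (-0.56, adjusted p = 0.0087). Without shRNA 2 the ID2 difference was -0.63, and without shRNA 1 it was -0.17.

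TGFBI encodes a matrix protein induced by TGF-beta. It read 17.32 and 17.18 in control and 17.71 and 17.56 in shRNA cells, or 0.39 ± 0.09 (SE, adjusted p = 0.0085). The groups were apart on this scale but overlapped in raw intensity, at 206696 and 161940 against 176230 and 165433. The call was lost without control 2 (0.31). Before normalization the control arrays were brighter, with median intensities of 501 and 384 against 326 and 319. LTBP1, BMPR1B and ACVR2A, called higher, also overlapped in raw intensity, and SMAD7 was lower there on both shRNA arrays.

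Beyond these 41, 77 other genes of the superfamily are on the array and 63 were tested, of which 24 were higher, 16 lower and 23 not called, with a median log2 fold change of 0.14. These 40 calls of 63 are a share near the 62.8% of all genes. Among 16 other ligands tested 3 were higher and 4 lower. GDF15, a stress-induced and distant relative of the TGF-betas, read 15.16 and 15.25 in control and 18.66 and 18.63 in shRNA cells, a rise of 3.44 ± 0.08 (SE, adjusted p = 4.7e-07). AMH (-0.91) and GDF11 (-0.57) were lower and GDF5 (0.33) higher. GDF9 and NODAL fell to background, 1.62-fold and 1.30-fold lower as measured, and the log2 difference of GDF9 ran from -1.92 to -0.36. The NODAL call was lost with median centring (-0.06). GDF11 lost its call with 75th percentile scaling (-0.67), and without control 1 (-0.60), control 2 (-0.51) or shRNA 2 (-0.32). GDF5 lost its call without control 2 (0.24) or shRNA 2 (0.30).

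Of 6 other receptors and co-receptors tested, 5 were higher and 1 lower. ACVRL1, a type I receptor best known from endothelium, was not well above background in control cells (6.15 and 6.19). It read 8.66 and 9.12 in shRNA cells, 6.58-fold higher as measured (adjusted p = 1.2e-05). BAMBI, a decoy receptor without a kinase that BMP signals induce, read 11.80 and 11.87 against 13.82 and 14.27, a log2 fold change of 2.21 ± 0.14 (adjusted p = 2.5e-05). Also higher were the BMP co-receptor RGMB (1.19), the type I receptor ACVR1C (1.03) and the co-receptor ENG (0.34). RGMA, a relative of RGMB, was lower (-1.43). The ACVRL1 difference ran from 1.58 (normexp fitted on all spots) to 5.71 (75th percentile scaling) on the log2 scale and was called in each. The 6 endothelial markers summed to 1208 to 1242 in control and 982 to 1022 in shRNA cells: VWF was higher (0.37), PECAM1 (-1.56) and TEK (-0.33) lower, CDH5 and KDR not called, and CLDN5 not above background on any array. Their part in the ACVRL1 result was not tested.

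Of 24 other extracellular regulators tested, 9 were higher and 6 lower. The antagonists NBL1 (-1.85), TWSG1 (-1.59), which can also aid BMPs, and SOST (-1.17, in a range from -2.50 to -0.63) fell. ITGB8, an integrin chain that helps to release latent TGF-beta, rose (1.51). LTBP3 rose (1.31) and LTBP4 fell (-1.28), and as means over all probes of a gene they gave 0.63 and -0.32. Of 17 other intracellular regulators, 7 were higher and 5 lower. The ubiquitin ligases SMURF1 (1.46), which marks receptors and SMADs for decay, and RNF111 (0.78) rose, as did the deubiquitinase USP15 (1.39), the corepressor TGIF1 (0.92), and FKBP1A (0.81, or 0.29 as a mean over probes), which binds type I receptors.

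More genes known as TGF-beta targets were higher than lower, and some well-known targets were among the lower ones. Of 24 tested, 14 were higher and 7 lower with a median log2 fold change of 0.30. Without the 5 that are among the 41 genes it was 11 of 19 higher and 5 lower. Over all genes 31% were called higher and 31.8% lower, with a median of 0.02. Both target lists were chosen with earlier results of these data known. ANGPTL4, a secreted regulator of lipid handling, rose by 2.48 ± 0.08 (SE, adjusted p = 1.4e-06), and PTHLH, a parathyroid hormone relative, by 1.69. FN1, fibronectin, had a log2 fold change of 1.82, with 1 of 2 control arrays well above background, and ran from 1.01 to 4.16 over other settings. KLF10 (-1.61), an early TGF-beta response gene, and SNAI2 (-1.47), a regulator of epithelial to mesenchymal change, fell. Of 13 BMP targets, 6 were higher and 5 lower with a median of -0.28, and of the 6 outside the 41 genes 4 were higher and 1 lower. MSX1, a homeobox gene, fell (-0.89), and RUNX2 (0.82), HEY1 (0.62) and ATOH8 (0.26), all transcription factors, rose. As a mean over probes RUNX2 gave 0.44. Without shRNA 2, 10 of the TGF-beta targets were still higher. The ATOH8 call was lost without control 1 (0.21), control 2 (0.31) or shRNA 2 (0.20), as a mean over probes (0.0090), with normexp fitted on all spots (0.16) and with no background correction (0.25).

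**Figure D4:**
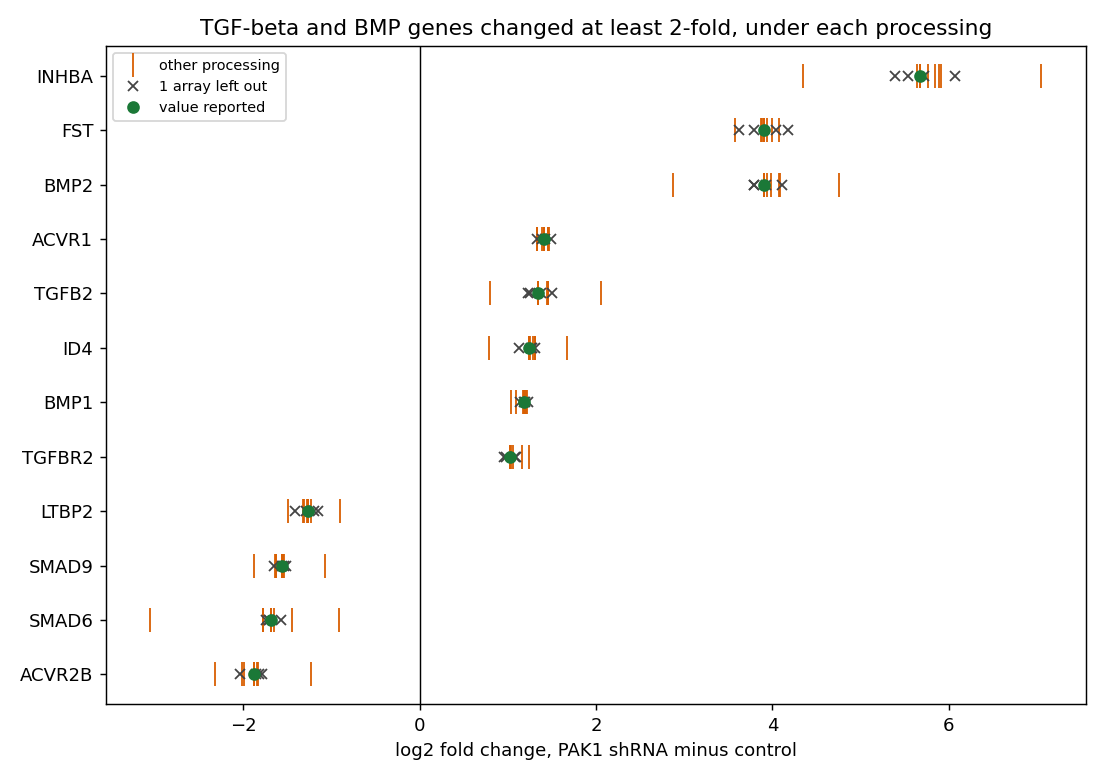
Log2 fold change (x axis, PAK1 shRNA minus control) of the 12 genes changed at least 2-fold: the value reported (green), the values with 1 array left out (crosses) and those under each other way of processing (orange ticks). No value crosses 0, and the spread is widest for INHBA (4.35 to 7.05) and SMAD6 (-3.06 to -0.92).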

How the data were processed

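RNA of 2 control and 2 PAK1 shRNA samples of MCF10A.B2 cells was labelled with Cy3 and hybridized to Agilent human arrays, 4 arrays on 1 slide. Samples were grouped by their titles. Spot intensities were deposited as the scanner software (Agilent Feature Extraction 9.5.3.1, per the file headers) gave them, not normalized across arrays. A deposited table of log2 values (24302 probes) has a background offset that is not given in the sources used here. Its column medians were 9.40 to 9.42, it correlated at 0.9993 to 0.9996 with the values used here, and it served as an alternative.

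Mean signals were corrected with normexp (offset 50) using the local background, with each array's parameters estimated without the spots flagged for background, since spots of high local background (over 100 on 8 and 18 spots of the control arrays and on none of the others) moved a fit on all spots. Control spots were dropped and arrays quantile normalized. Outlier spots were left out, spots of a probe averaged, and a probe kept if flagged well above background on each array of 1 group or the other. A gene was represented by its brightest probe on average. Between 78.9% and 83.2% of 34127 probes per array were well above background, and the number of arrays limits the precision.

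In R 4.3.3, limma 3.58.1 (lmFit, then eBayes) was fitted to all 4 arrays at once, with p-values adjusted by Benjamini and Hochberg and called under 0.05. Scripts were tested on simulated data. A permutation of 2 against 2 arrays cannot give p below 0.333, so no permutation p is given. A bound ("at least N-fold") sets the bright group's mean against, per array of the other group, the higher of the dim probe and the lowest probe signal well above background. The genes, gene lists and motifs were chosen with earlier results of these data known. Named were all 41 genes, PAK1 and up to 6 others of each list, those past the threshold with the largest changes, of which a few are not reported here. Gene names and probe coordinates (hg19) are those of the array files, and promoters are from RefSeq (GRCh38.p14), which had none for BMP1, BMP2, BMP7, NOG and SKI in the table used.

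The samples were treated as unpaired. Deviations of same-numbered samples from their group means correlated at 0.0088 over 27545 probes. With 1 difference per group this cannot show whether the samples were collected in pairs. Alternatives were other background corrections, scalings, filters and probe rules, an unpaired t-test, a replicate block, the deposited log2 values, a stricter threshold and leaving out each array.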

Additional observations from a re-analysis of the deposited data

How the results depend on the processing

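Of 636 values of the 40 genes under alternatives, 589 kept direction and side of the threshold, 22 lost the call, 14 gained it and 11 changed sign, all 11 for genes not called: with median centring TGFB3 (0.034), BMP6 (0.016) and SMAD3 (-0.081), with the mean over probes BMP7 (-0.16), and with 1 array left out BMP7 (-0.10 to 0.15), SMAD3 (-0.069 to 0.091), SMAD4 (-0.11 to 0.047) and ACVR1B (-0.032 to 0.15). Median centring and 75th percentile scaling moved the median of all genes to 0.14 and 0.12. With normexp fitted on all spots 2 of the genes were at least 2-fold lower in place of 4. The paper names an unpaired t-test for its statistics in general, and limma's moderated t-test for its arrays. The unpaired t-test with Benjamini-Hochberg adjustment called 4370 of all genes higher, 8 of the other pathway genes lower and 8 of the TGF-beta targets higher. Among the 41 genes TGFBR3, SKIL and ID1 lost their call only there. FN1 (adjusted p = 0.079), RUNX2 (0.054) and ATOH8 (0.13) lost it there too. At an adjusted p under 0.01, 14 of the genes were higher and 11 lower. Leaving out 1 array gave 13 to 15 higher and 11 to 13 lower, with a lone array assumed to vary like the other group. With a replicate block by sample number 16 were higher and 16 lower, BMP6, SMAD5 and ID2 being added. The BMPR1A difference passed as a mean over probes (0.40). INHBB ran from -2.50 to -0.37 and ID4 from 0.78 to 1.67 over all settings. For genes near background the size of a change depends on background handling, and for small changes 2 arrays per group limit the call.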
